A study of Homo sapiens with 3 samples.

Results

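LINC transcripts are genes named as long intergenic non-protein-coding RNAs. In the 3 teratoma libraries, a symbol was counted as an expressed LINC transcript when it consisted of LINC and a number, its table entry was at least 200 bases long, and its mean level over the 3 libraries was at least 1 RPKM, the number of reads divided by transcript length in kilobases and by library size in units of 1000000 reads. The members were thus chosen by their mean RPKM, and their levels are given as a description. Where a symbol had several RefSeq entries, the entry with the highest mean RPKM was kept. The rule left 103 of the 1243 LINC symbols, out of 27307 gene symbols in all. Of the LINC symbols, 469 had no read in any library, and the median of the 1140 that were not kept was 0.011 RPKM. The lowest kept were LINC00115 (1.05 RPKM), LINC01184 (1.02) and LINC01816 (1.01), and the highest not kept were LINC00479 (0.993), LINC00324 (0.975) and LINC00176 (0.935).

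The libraries, called teratomas 1, 2 and 3 by replicate number, came from tumours of H1 cells, an established human embryonic stem cell line, with no other treatment and no comparison group. A teratoma is a tumour in which pluripotent cells form tissues of all germ layers. The submitters injected 1000000 cells subcutaneously per SCID-beige mouse, which lacks working lymphocytes, and collected tumours at 3 to 4 weeks. Nothing in the labels ties each library to its own tumour, and the technical part of the spread between libraries was not tested. The part of reads from host mouse tissue was not tested either. The library totals that the RPKM values imply were 43605458 to 46243199 reads, and each expressed LINC transcript 15 to 5078 reads in a library. Markers set for these tumours spanned the germ layers: all 12 neuron, 8 fibroblast and 8 liver and yolk sac markers reached 1 RPKM in each library. Teratoma 3 stood apart in some marker lists. The summed level of neuron markers was 816, 1019 and 2707 RPKM in teratomas 1, 2 and 3, of fibroblast markers 1909, 1569 and 423, and of gut markers 97.5, 118 and 26.7. Teratoma 2 stood apart in others. Liver and yolk sac markers summed to 1080, 3749 and 347 RPKM, epidermis markers to 16.5, 219 and 44.5, and pluripotent cell markers to 25.3, 63.8 and 27.3.

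Long intergenic RNAs are made by RNA polymerase II and most are spliced and polyadenylated, but few are conserved in sequence and many are made in only a few cell types. Some act on a neighbouring gene in cis, some act elsewhere in the cell, some are precursors of microRNAs, and some were later found to encode small proteins. In embryonic tissue they are known as markers of lineage, often beside genes of developmental transcription factors.

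Several of the transcripts described below carry short sequences or starts of known kind, shown here as description. The levels and neighbour genes compared later do not rest on them. LINC00461 is the host transcript of the microRNA gene MIR9-2 and is named MIR9-2HG in the current RefSeq annotation. Its microRNA miR-9 is a regulator of neural progenitors. LINC00969 (MIR570HG) spans MIR570. These were the 2 of 103 whose gene span held a microRNA gene in the RefSeq table used, which is not complete. In the mature sequences from RefSeq (GRCh38.p14), capitals mark the seed, bases 2 to 8 from the 5′ end, which pairs with target RNAs. The 4 seeds differed from each other.
hsa-miR-9-5p: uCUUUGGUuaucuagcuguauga
hsa-miR-9-3p: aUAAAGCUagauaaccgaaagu
hsa-miR-570-5p: aAAGGUAAuugcaguuuuuccc
hsa-miR-570-3p: cGAAAACAgcaauuaccuuugc

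Start regions are shown for 4 members whose nearest protein-coding gene is a transcription factor gene. They follow RefSeq on GRCh38.p14, from 250 bases before to 50 bases after an annotated start, 5′ to 3′ along the transcript. The deposited tables use hg19, so these positions apply to GRCh38 alone. Capitals mark matches, on either strand, to the TATA box TATAAA, the GC box written GGGCGG, the CCAAT box, the E-box written CAGCTG, the SOX core written ACAATG, the forkhead core written TGTTTAC, or the POU octamer ATGCAAAT. The octamer was added after these sequences had been seen. LINC01158 (chr2:104851427-104851726, minus strand) and LINC01102 (chr2:104434097-104434396, plus strand) have POU3F3 as nearest protein-coding gene, LINC00261 (chr20:22578593-22578892, minus strand) has FOXA2, and LINC00543 (chr13:27953276-27953575, plus strand) has CDX2.
LINC01158: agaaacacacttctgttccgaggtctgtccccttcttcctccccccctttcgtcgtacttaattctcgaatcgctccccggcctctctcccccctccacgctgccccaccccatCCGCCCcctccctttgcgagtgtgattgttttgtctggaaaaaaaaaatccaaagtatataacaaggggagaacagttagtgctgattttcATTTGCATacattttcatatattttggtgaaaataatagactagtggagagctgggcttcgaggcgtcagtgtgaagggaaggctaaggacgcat
LINC01102: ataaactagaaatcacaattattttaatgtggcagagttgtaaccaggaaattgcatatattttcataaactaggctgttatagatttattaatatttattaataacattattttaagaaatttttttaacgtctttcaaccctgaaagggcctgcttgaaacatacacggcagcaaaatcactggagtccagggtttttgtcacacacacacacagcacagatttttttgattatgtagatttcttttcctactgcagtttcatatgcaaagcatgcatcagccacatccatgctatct
LINC00261: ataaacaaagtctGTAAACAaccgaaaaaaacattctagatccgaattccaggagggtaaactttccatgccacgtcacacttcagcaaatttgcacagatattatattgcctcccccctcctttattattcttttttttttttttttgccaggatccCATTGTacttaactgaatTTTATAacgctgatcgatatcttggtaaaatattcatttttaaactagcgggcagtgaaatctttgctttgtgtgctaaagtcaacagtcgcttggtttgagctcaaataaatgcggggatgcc
LINC00543: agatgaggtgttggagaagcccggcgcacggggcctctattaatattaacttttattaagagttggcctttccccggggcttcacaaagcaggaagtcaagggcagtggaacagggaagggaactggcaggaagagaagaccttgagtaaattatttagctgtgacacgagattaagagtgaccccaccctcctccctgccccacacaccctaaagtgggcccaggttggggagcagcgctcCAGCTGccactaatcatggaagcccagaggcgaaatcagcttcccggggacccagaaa

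The LINC00261 window held GTAAACA, the reverse complement of TGTTTAC, the core that forkhead factors such as FOXA2 recognise. That motif was in 2.04% of member windows and 3.42% of all 35116 windows. The same window held the TATA box and the SOX core, each as its reverse complement, which were in 11.5% and 10.8% of all windows. The LINC01158 window held ATTTGCAT, the reverse complement of the octamer ATGCAAAT recognised by POU factors, which was in 3.06% of member windows and 1.77% of all windows. It also held the GC box as its reverse complement, found in 45% of all windows. The LINC01102 window held none of the 7 motifs, and that of LINC00543 held CAGCTG, an E-box, which was in 17.9%. A match describes the letters of the window and shows no binding.

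Levels of the expressed LINC transcripts ran from 1.01 to 45.5 RPKM with a median of 3.07, against a median of 7.65 over the 15296 symbols of the same minimum length and level. Their mean was at least 10 RPKM for 17 and under 2 for 39. Together they summed to 553, 542 and 635 RPKM in teratomas 1, 2 and 3, which was 0.186%, 0.189% and 0.230% of the RPKM of all symbols. In each library, its own 10 highest members held 40.3% to 42.5% of that sum. At least 1 RPKM in every library was reached by 77 of 103 (74.8%), beside 92% of the 15296 symbols.

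The highest level was that of LINC01578, now named CHASERR, a non-coding RNA beside CHD2 that is known to lower the output of that chromatin remodeller gene. It stood at 38.7, 40.7 and 57 RPKM in teratomas 1, 2 and 3 (45.5 ± 10.1, SD, n = 3), and CHD2 at 12.3, 12.6 and 14.2 RPKM. Summing its 3 entries in place of keeping the highest gave a mean of 118 RPKM, where a read may count more than once. Both genes were highest in teratoma 3, and CHASERR differed by 1.47-fold between its highest and lowest library. LINC00403, now SOX1-OT, overlaps SOX1, a transcription factor gene of neural progenitors, and stood at 28.1, 26 and 50.7 RPKM (34.9 ± 13.7). SOX1 stood at 38.6, 31.8 and 47.7 RPKM, in the same order of libraries. Their gene spans overlap, so some reads may count for both. Overlap of their exons was not examined, and the strand setting is not given in the sources used here.

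**Figure D1:**
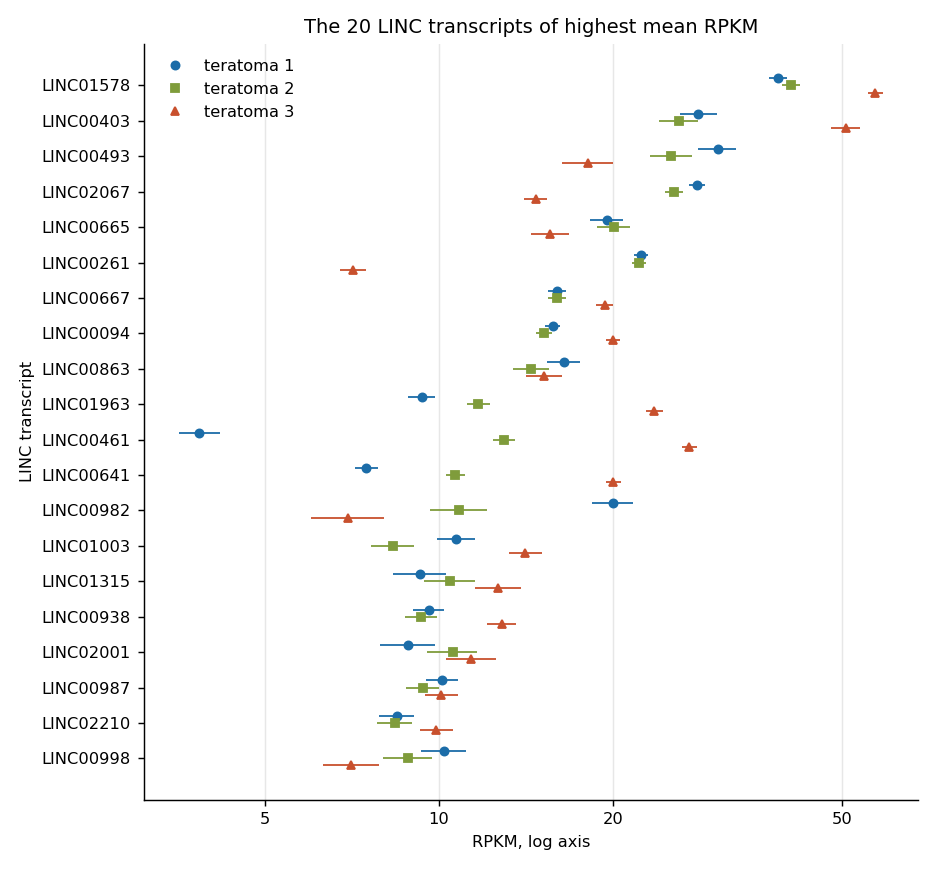
RPKM (log axis) of the 20 LINC transcripts with the highest mean, 1 point per teratoma with its 95% exact Poisson counting interval. LINC01578 leads at 38.7 to 57 RPKM, and LINC00461 spreads the most of these 20, from 3.84 to 27.2.

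The rest of the leading 10 included transcripts with little spread. LINC00665 stood at 19.5, 20.1 and 15.6 RPKM, LINC00667 at 16, 16 and 19.4, and LINC00863 at 16.4, 14.5 and 15.2. LINC00667 shares a stretch of 773 identical bases with LINC00526 (7.19, 6.53 and 6.78 RPKM) in a search of both strands, so some reads may count for both. They are listed on opposite strands with the same nearest coding gene, AKAIN1. Whether the stretch is an overlap at 1 locus or a copy was not tested. LINC02067 stood at 28, 25.5 and 14.7 RPKM and was lowest in teratoma 3, while LINC01963 stood at 9.33, 11.7 and 23.6 and was highest there. The 5 most even members with a mean of at least 2 RPKM were LINC00467 (2.28, 2.33 and 2.33 RPKM), LINC01503 (2.19, 2.26 and 2.26), LINC01521 (6.01, 6.38 and 6.28), LINC00987 (10.1, 9.37 and 10.1) and LINC00526. LINC00467 and LINC01503 rested on 74 to 81 reads per library. Summing the 9 entries of LINC00987 gave a mean of 62.4 RPKM, where a read may count more than once. In all, the highest library was under 1.5 times the lowest for 45 of 103 (43.7%), beside 53% of the 15296 symbols.

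The other members differed more. A member was counted as varying when its highest library exceeded its lowest by at least 2-fold on log2(RPKM + 0.1), with the 95% exact Poisson counting intervals of the 2 libraries apart. This held for 27 of 103 members (26.2%), and for 26.2% of the 15296 symbols, so the share was that of the background. Among symbols with a mean under 5 RPKM, it held for 20 of 68 members (29.4%) beside 34.7% of all. The median SD of log2(RPKM + 0.1) was 0.36 over the members and 0.28 over all 15296 symbols, and 0.39 and 0.35 below 5 RPKM. Each teratoma number stands for 1 library, so these folds have no replicate check. Without teratoma 3, the number that varied dropped to 8.

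**Figure D2:**
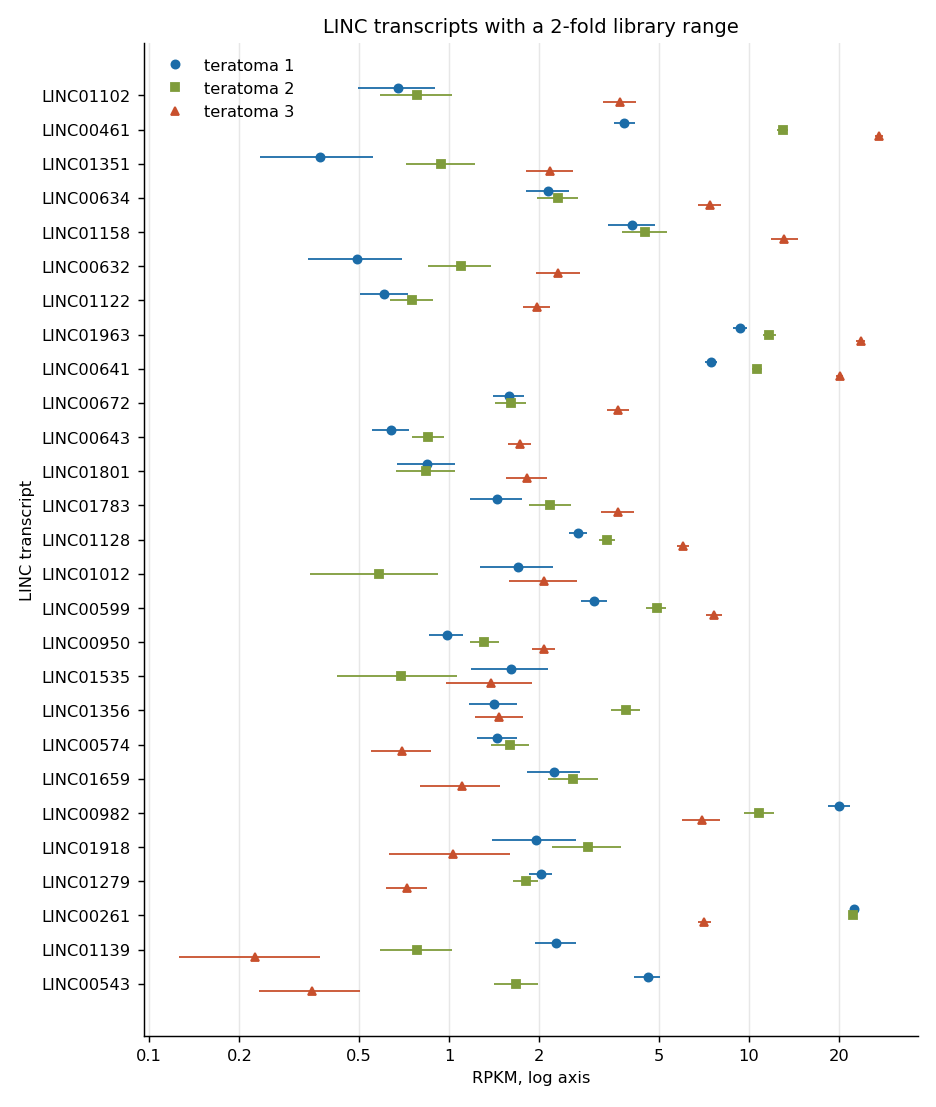
RPKM (log axis) in each teratoma of the 27 LINC transcripts that varied 2-fold, with 95% exact Poisson counting intervals, ordered by the deviation of teratoma 3. Teratoma 3 is the highest library for 17 of them and the lowest for 8, with LINC00543 at the foot at 0.349 RPKM.

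Teratoma 3 was the highest library for 53 of 103 members (51.5%), beside 40.2% of the 15296 symbols. Teratoma 1 was highest for 33 (32%, background 39.8%) and teratoma 2 for 17 (16.5%, background 20%). The lowest library was teratoma 1 for 40 members (38.8%, background 31.1%), teratoma 2 for 27 (26.2%, background 20.7%) and teratoma 3 for 36 (35%, background 48.2%). Some library exceeded both others by at least 2-fold, with counting intervals apart, for 13 members (12.6%), where the background was 8.16%, and some library lay below both for 8 (7.77%), where it was 11.6%. Teratoma 3 exceeded both other libraries for 10 members (9.71%), where the background was 5.79%, and lay below both by that much for 4 (3.88%), where it was 10.3%. Against the mean of the other libraries, the median member deviated in teratoma 3 by 0.18 on the log2 scale and the median symbol by -0.06. In bulk tissue, more cells of a type and more RNA per cell cannot be told apart.

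**Figure D3:**
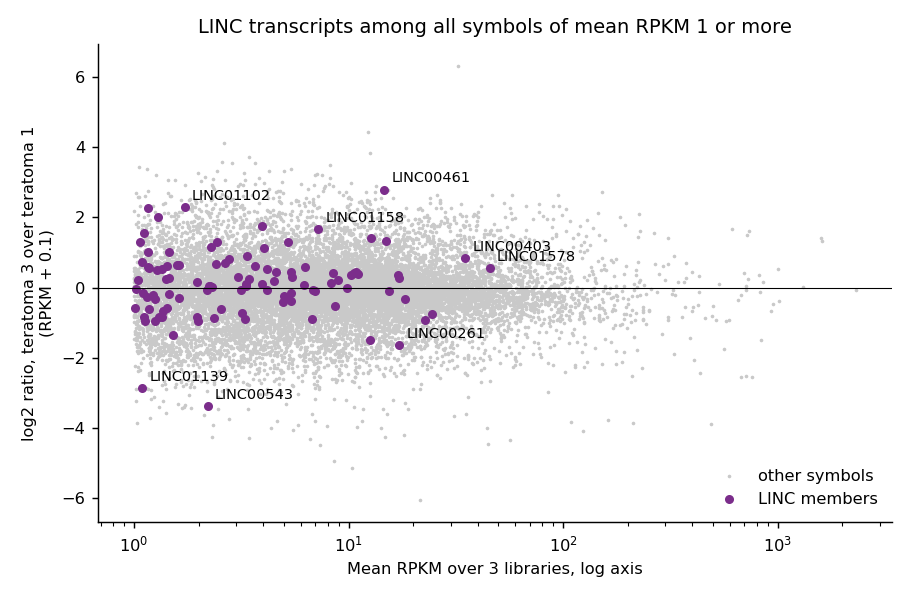
Log2 ratio of RPKM + 0.1, teratoma 3 over teratoma 1, against mean RPKM (log axis) for the 103 LINC members (purple) and all other symbols of mean 1 RPKM or more (grey). Members lie across the grey cloud, from LINC00543 at -3.38 to LINC00461 at 2.79.

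LINC00461 had the largest ratio of teratoma 3 to teratoma 1 among the 103 members. It stood at 3.84, 12.9 and 27.2 RPKM in teratomas 1, 2 and 3, on 597, 1992 and 3977 reads, and the counting intervals of the 3 libraries did not overlap. Teratoma 3 exceeded teratoma 1 by 7.06-fold. Its nearest protein-coding gene, MEF2C, a transcription factor of muscle, heart and neurons, stood at 2.16, 2.16 and 2.3 RPKM and was nearly even. LINC00599, which RefSeq names MIR124-1HG, stood at 3.05, 4.92 and 7.66 RPKM and was also lowest in teratoma 1.

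Of the 10 members high in teratoma 3, LINC01158, LINC01102 and LINC00632 have a nearest coding gene matching a pattern of transcription factor family names. MEF2C, nearest to LINC00461, is outside that pattern. LINC01158, named PANTR1 and known from embryonic brain, stood at 4.08, 4.49 and 13.1 RPKM, and LINC01102 at 0.675, 0.783 and 3.72. Teratomas 1 and 2 were close and teratoma 3 lay far above both, by 3.22-fold and 5.51-fold over teratoma 1. POU3F3, a neural POU factor gene and the nearest coding gene to both, stood at 19.7, 29 and 54.9 RPKM. Distances to nearest genes are not given here, and nearest need not mean adjacent. LINC00632, the transcript whose locus also gives the circular RNA of CDR1 antisense, stood at 0.495, 1.09 and 2.31 RPKM, while SOX3, its nearest coding gene and a factor of neural progenitors, stood at 24, 20.2 and 26.5. The circular RNA itself was not measured here.

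The remaining members that passed in teratoma 3 included 3 named after their values were seen, since the count is small. LINC01351, now BRINP3-DT, starts back to back with the neural gene BRINP3 and stood at 0.371, 0.943 and 2.17 RPKM, with BRINP3 at 3.23, 4.51 and 8. LINC01122 stood at 0.609, 0.752 and 1.96 RPKM, and LINC01801 at 0.842, 0.839 and 1.82. LINC01963, LINC00634 and LINC00672 complete the 10, and the coding genes nearest to them and to LINC01122 and LINC01801 are XRCC5, CENPM, LASP1, FANCL and ZNF599. All 12 neuron markers, such as STMN2 (103, 137 and 440 RPKM) and TUBB3 (435, 510 and 1216), also exceeded both other libraries by 2-fold in teratoma 3. Of the 8 neural progenitor markers 1 did so, FABP7 (34.3, 48.8 and 134 RPKM), while all 8 were highest in teratoma 3. SOX2 (86.8, 87.1 and 107 RPKM) and NES (94, 87.8 and 98.4) differed by less than 1.5-fold. None of these 20 markers was at 0 in any library. The part of neuronal content in these LINC levels was not tested.

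The 4 members low in teratoma 3 were LINC00261, LINC00543, LINC01139 and LINC01279. With a minimum mean of 0.5 RPKM, 14 LINC symbols exceeded both other libraries in teratoma 3 and 11 lay below both. LINC00261, a transcript of endoderm known to promote FOXA2 expression, stood at 22.4, 22.2 and 7.1 RPKM (17.2 ± 8.77, SD, n = 3). Teratomas 1 and 2 were alike and teratoma 3 lay 3.15-fold below teratoma 1. FOXA2, the pioneer factor gene of endoderm beside it, stood at 36.4, 30.2 and 10.1 RPKM and was likewise lowest in teratoma 3. LINC00543 stood at 4.59, 1.67 and 0.349 RPKM, on 390, 141 and 28 reads, with a 13.1-fold range. CDX2, the hindgut factor gene nearest to it, stood at 25.8, 31.3 and 8.98 RPKM, so both were lowest in teratoma 3 but their highest library differed. All 7 gut markers, none of them at 0, also lay below both other libraries by 2-fold in teratoma 3, and their part in these levels was not tested.

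LINC01139, named after its values were seen, stood at 2.27, 0.784 and 0.225 RPKM, the last on 15 reads, and differed by 10.1-fold. LINC01279 stood at 2.02, 1.8 and 0.722 RPKM. RefSeq now gives its name as a synonym of CCDC80, a secreted matrix protein gene, which stood at 14, 10.4 and 4.7 RPKM and was highest and lowest in the same libraries. All 8 fibroblast and mesenchyme markers, none at 0, lay below both other libraries by 2-fold in teratoma 3. LINC00982, now PRDM16-DT, stood at 20, 10.8 and 6.95 RPKM beside PRDM16, a zinc finger factor gene, at 7.44, 4.75 and 4.28.

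Calls for teratomas 1 and 2 were few in number, also over all symbols. Teratoma 1 exceeded both others by 2-fold for 2 members (1.94%, background 1.24%), LINC00543 and LINC01139. It lay below both for 3 (2.91%, background 1.25%), LINC00461, LINC00632 and LINC01351. Teratoma 2 exceeded both for 1 member (0.971%, background 1.13%), LINC01356, at 1.41, 3.89 and 1.47 RPKM. It lay below both for 1 (0.971%, background 0.0981%), LINC01012, named after its values were seen, at 1.7, 0.582 and 2.07 RPKM, where teratoma 2 had 18 reads. Liver and yolk sac markers summed to 1080, 3749 and 347 RPKM and were highest in teratoma 2.

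The lists of LINC genes by known setting gave uneven yields. Of the neural list 8 genes had entries and 6 were expressed, and all 6 varied 2-fold: LINC00461, LINC00599, LINC00632, LINC00982, LINC01158 and LINC00643 (0.639, 0.852 and 1.72 RPKM). Of these 6, 5 were highest in teratoma 3 and LINC00982 was highest in teratoma 1. Over all 15296 symbols, 26.2% varied 2-fold and 40.2% were highest in teratoma 3, and the list was chosen with earlier results of these data known, so it is no independent evidence. LINC00689, which was not expressed by the rule, was at 0.103 to 0.149 RPKM. Of 7 genes of the endoderm and liver list, LINC00261 alone was expressed. LINC01018, a liver transcript, was at 0.354, 0.436 and 0.473 RPKM, and LINC01554 and LINC01093 had 8 reads or fewer in each library.

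Pluripotency and muscle LINC lists gave none. All 5 pluripotency LINC genes had entries and none was expressed: LINC00458, a transcript of embryonic stem cells, stood at 0.19, 0.298 and 0.224 RPKM on 9 to 14 reads. Among coding markers, 6 of 7 for pluripotent cells had a mean of at least 1 RPKM, such as LIN28A (11.2, 31.6 and 9.14 RPKM). So did 4 of 8 for skeletal and cardiac muscle, such as DES (4.85, 10.3 and 4.49). The 5 muscle and mesoderm genes with entries were all under 1 RPKM, led by LINC01082 at 0.69, 0.497 and 0 RPKM, the last with no read. Of the broadly expressed list 8 had entries and 5 were expressed: LINC00665, LINC00467, LINC00963 (5.63, 5.03 and 4.2 RPKM), LINC00673 (4.79, 5.61 and 5.88) and LINC00662 (3.19, 2.83 and 4.95). None of these 5 varied 2-fold.

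Some members now fall under the names of coding genes. RefSeq lists 9 of the 103 as synonyms of protein-coding genes. For LINC01279 and LINC00950, the coding genes CCDC80 and TMEM8B have entries of their own at other levels, so these LINC entries need not code. LINC00493, now SMIM26, a mitochondrial microprotein gene, stood at 30.4, 25.2 and 18.1 RPKM and had rank 3 by mean. LINC00998, now SMIM30, stood at 10.2, 8.82 and 7.04, and LINC00116, now MTLN, which encodes the mitochondrial microprotein mitoregulin, at 3.01, 2.43 and 1.61. In these 3, teratoma 1 was highest and teratoma 3 lowest, and none reached the 2-fold range. LINC01314, now CTXND1, was at 1.28, 1.48 and 1 RPKM.

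The other reclassified members were mixed. LINC00094, now BRD3OS, stood at 15.7, 15.2 and 20 RPKM, and its span overlaps BRD3 (28.3, 28.5 and 32.8), a bromodomain gene, so reads could be shared. LINC00634, now SMIM45, stood at 2.14, 2.3 and 7.39 RPKM and was above both other libraries in teratoma 3, while CENPM, a centromere gene whose span overlaps it, stood at 13.6, 7.91 and 5.53 in the opposite order. LINC00672, now LASP1NB, stood at 1.58, 1.61 and 3.66 RPKM beside LASP1 at 73.5, 76.9 and 65.3. LINC00950, now a synonym of TMEM8B, a membrane protein gene, stood at 0.981, 1.31 and 2.07 RPKM, and TMEM8B at 16.4, 15.3 and 19.7.

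**Figure D4:**
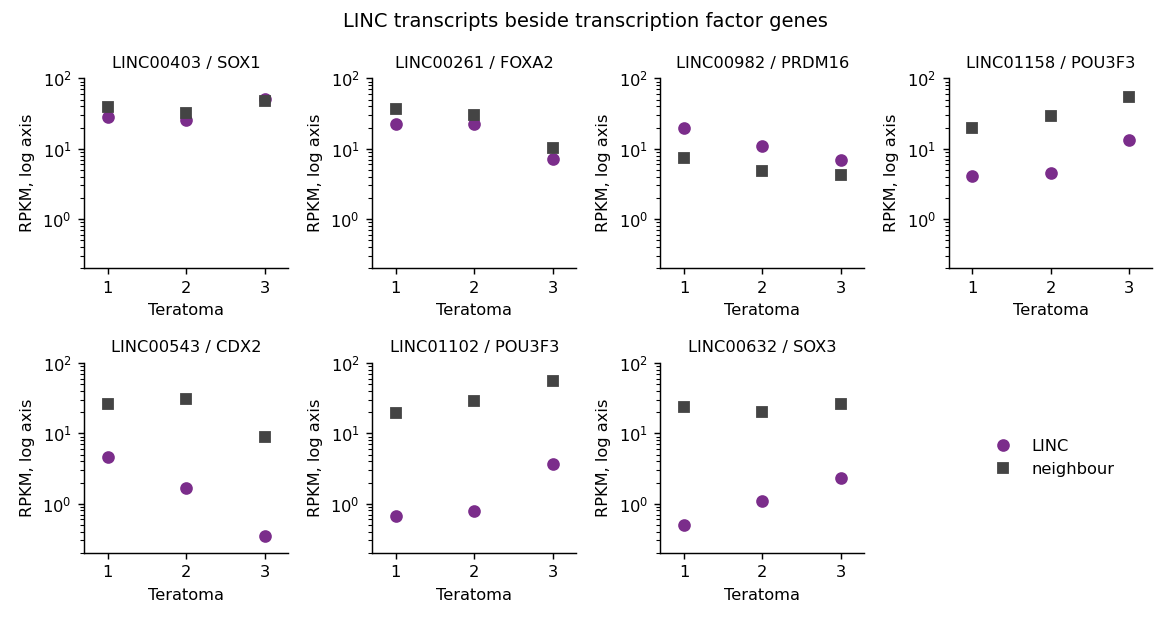
RPKM (log axis) in each teratoma of 7 LINC members (circles) and of their nearest protein-coding genes (squares). In these pairs the coding gene matched a pattern of developmental transcription factor family names. LINC00261 and FOXA2 are both lowest in teratoma 3, at 7.1 and 10.1 RPKM, and LINC01158 and POU3F3 both highest there, at 13.1 and 54.9.

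The 7 members in that plot were found by a pattern of factor family names, which does not hold MEF2C, nearest to LINC00461. They are those set beside their factor genes above: LINC00403, LINC00261, LINC00982, LINC01158, LINC00543, LINC01102 and LINC00632. The LINC member and the factor gene had the same highest library in 6 of the 7 pairs, LINC00543 and CDX2 being the exception, and 2 pairs share POU3F3. Over all members whose nearest protein-coding gene reached a mean of 1 RPKM, 37 of 87 (42.5%) shared the highest library with it. The share was also 42.5% over 10798 pairs of other symbols with a coding entry and their neighbours. The lowest library was shared by 29 of the 87 (33.3%), beside 42.6% of the other pairs. The log2 ratio of teratoma 3 to teratoma 1 correlated across genes at Pearson r = 0.26 in all 87 member pairs and 0.15 in the other pairs. It was 0.31 in the 73 member pairs whose spans do not overlap and 0.13 in 8190 such other pairs, but -0.63 in the 14 overlapping member pairs and 0.24 in 2608 other overlapping pairs. These pairs share libraries and are not independent replicates.

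The start regions of expressed LINC genes differed in composition from those of the other LINC genes. RefSeq windows were found for 82 of the 103, with 98 starts, and for 806 of the others, with 857 starts. Windows were assigned by current RefSeq gene, so the member windows include those of the 9 members now named as coding genes. For LINC01279 and LINC00950 they are the starts of CCDC80 and TMEM8B, which also have entries of their own. The ratio of observed to expected CpG dinucleotides, which is high in CpG islands, was at least 0.6 in 60.2% of the member windows, 18.2% of the other LINC windows and 62.2% of 22169 protein-coding windows. Median GC content was 58.2%, 48% and 62.3%. GGGCGG, the GC box, was in 48% of member windows, 18.9% of the other LINC windows and 45% of all windows, and TATAAA in 9.18%, 16.2% and 11.5%.

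Divergent starts showed a similar order. A protein-coding gene started on the opposite strand within 1000 bases upstream for 9 of the 82 members (11.0%), 24 of the 806 other LINC genes (2.98%) and 12.3% of 15818 protein-coding genes. The 9 were LINC00235, LINC00909, LINC00950, LINC01006, LINC01184, LINC01351, LINC01481, LINC01547 and LINC01560. For LINC00950 the start used was that of the coding gene TMEM8B. These shares are descriptions with no test. Expressed members also had longer entries, with a median of 1824 bases against 1186 in the other LINC symbols, and 34 had more than 1 RefSeq entry.

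Read sharing touched some members. In GENCODE 29 transcripts, found for 99 members, 8 pairs of members shared a stretch of at least 200 bases at 95% identity or more, and 12 members took part. The longest was 2256 bases at 99.5% between LINC01106 (2.64, 3.31 and 3.26 RPKM) and LINC01123 (4.04, 4.56 and 3.87). LINC01001 and LINC01002 shared 918 bases at 98.5% and stood at 3.96, 3.31 and 2.33 and at 4.04, 3.78 and 2.11 RPKM. The levels of such members are uncertain. Gene spans of 22 members overlap a protein-coding gene in RefSeq, counting genes named LOC and a number, which the neighbour pairs leave out. The same share over other symbols was not counted.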

How the data were processed

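RNA-seq of 3 teratoma libraries was used, each with 1 table of 59443 RefSeq entries without a header. Bowtie2 and hg19 are named in the submitters' processing notes. For the counting tool, filters, strand setting and removal of mouse reads, no statement was found (not given in the sources used here). The deposited RPKM values equal the deposited raw read counts divided by entry length and by 1 total per library. The other deposited columns are the length and a number that may count genome placements. No model was fitted, since the labels give 1 group.

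Levels were compared as log2(RPKM + 0.1), because members are low. Counting intervals are exact Poisson (95%) and cover counting error only. A count of 3 reads at the median member length of 1824 bases gave 0.0356, 0.0359 and 0.0377 RPKM. All 103 members matched RefSeq genes of GRCh38.p14, 94 by accession and 9 by synonym. Neighbours came from gene order there, leaving out coding genes named LOC and a number, and motifs from its start windows. Stretches shared between members were found with blastn on both strands in GENCODE 29.

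Members and lists were chosen with earlier results of these data known. Named were the 10 highest means, for each library the 4 largest excesses and deficits and the 5 smallest SDs among members of mean 2 RPKM or more, the 3 symbols on each side of the minimum, list members, the 10 highest members beside transcription factor genes, and members now named as coding genes. Others are marked in the text as named after their values were seen, and members in lists of calls, divergent starts or shared stretches are named because those lists are short. Alternatives covered the minimum mean, entries per symbol, scaling, length, pseudocount, fold and each library left out. Calls were tested on simulated data. Statistics ran in Python 3.11.15 (scipy 1.17.1, pandas 2.3.3, numpy 2.4.6), and plots were drawn with matplotlib 3.10.9. The values of 1 LINC symbol of the neural list are not reported here.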

Additional observations from a re-analysis of the deposited data

How the results depend on the processing

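No paired analysis was possible because there is 1 group. With a minimum mean of 0.5 RPKM, 157 LINC symbols were kept, 46 varied 2-fold, 20 exceeded and 16 lay below both other libraries, and with a minimum of 2 RPKM the numbers were 64, 13, 7 and 3. The numbers above and below in teratoma 3 alone were 10 and 4, but 14 and 11 at 0.5 RPKM, 5 and 2 at 2 RPKM, 22 and 16 after rescaling, 4 and 1 with a pseudocount of 1 RPKM, 22 and 10 at a fold of 1.5, and 1 and 0 at a fold of 4. After rescaling to 1000000 per library, which raises all values, 219 were kept, 78 varied, 29 exceeded both others, 26 lay below both and 162 reached 1 RPKM in all libraries. With a pseudocount of 1 RPKM, 14 varied, 5 exceeded and 2 lay below, against 27, 13 and 8 with 0.1 RPKM. At a fold of 1.5 the numbers were 51, 27 and 15, and at a fold of 4 they were 6, 1 and 0. With 1 library left out, the number kept ranged from 97 to 105, that reaching 1 RPKM throughout from 81 to 86, and that varying from 8 to 22. The numbers above or below the other library then also ranged from 8 to 22, and the median SD from 0.14 to 0.39. Without teratoma 3, 8 varied, 6 of them among the 27, and the median SD was 0.14. Averaging or summing entries, median-of-ratios scaling, no minimum length, a pseudocount of 0.01 RPKM, and leaving out members now named as coding genes or sharing near-identical stretches (both added after the data were seen) kept each of these counts, summed over libraries, within 1.5 times. Mean levels of the 43 named members moved by more than 1 SD for 4 with entries averaged, 13 with entries summed and 43 after rescaling. With entries summed, mean levels were 60.7 RPKM for LINC00403, 29.9 for LINC00461, 25.4 for LINC00641, 22.8 for LINC01158, 28.6 for LINC00665, 16.8 for LINC00998, 15.6 for LINC00673, 7.05 for LINC01138, 4.38 for LINC01503, 2.41 for LINC00632, 118 for LINC01578 and 62.4 for LINC00987, each over 1.5 times that of the kept entry. Reads over all entries numbered 91802175, 90822459 and 90387058 in teratomas 1, 2 and 3. The implied library totals were 46243199, 45815402 and 43605458, so some reads counted for more than 1 entry. Summed levels may thus count a read more than once, and the part of such reads in each symbol was not tested.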
